A study of Mus musculus with 19 samples.

Results

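Rftn2, Myof and Emd are the 3 genes, of 12778 measured, that were higher in induced pluripotent stem cells (iPSC) lacking the miR-302 microRNA cluster than in wild-type (WT) iPSC at a Benjamini-Hochberg adjusted p under 0.05 in limma. They were picked by that difference, so their levels in these 2 groups are given here as a description. The number of genes called varied with the settings of the fit, and the authors' deposited table from the same libraries lists 32 higher genes. The other groups show how far the levels of Rftn2, Myof and Emd followed the miR-302 knockout (KO), the miR-290 KO or any KO at all.

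Gene expression was measured with QuantSeq, which sequences the 3′ ends of polyadenylated RNA, in 19 libraries of mouse cells. WT iPSC, miR-290 KO iPSC, miR-302 KO iPSC and iPSC lacking both clusters (double KO) were reprogrammed fibroblasts of embryos that had received Oct4, Sox2 and Klf4, and were collected more than 18 passages later; miR-290 KO and miR-302 KO embryonic stem cells (ESC) had been derived as such, and all cells grew with LIF and serum. Each KO iPSC group had 2 colonies with 2 libraries per colony, WT iPSC had 3 libraries and each ESC group had 2, and no WT ESC library was used. The series describes colonies as independently derived and excepts the WT iPSC, so the 3 WT libraries may stand for 1 derivation, and p-values over libraries then measure only the spread between those libraries.

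Each library held 6433259 to 24980302 recovered reads (median 17461994), and levels are given in CPM, which scales the reads of a gene to the total of its library. Library 2 of miR-302 KO colony 1 stood apart. Its 20 most abundant genes took 17.1% of the reads, against 8.62% to 13.5% in the other 18 libraries, and its mean correlation across genes with its own group was 0.852, against 0.904 or more. The double KO libraries carry an iPSC label but had low pluripotency markers: the 9 of 10 marker genes with recovered reads (among them Pou5f1, Nanog and Sox2) summed to between 58.9 and 109.6 CPM there and to between 2695 and 4470 CPM in the other groups. In limma all 10 were called lower in the double KO than in WT iPSC, where 21.5% of all genes were. Fibroblast markers, 5 of 12 of which were measured, summed to between 7.43 and 10.3 CPM in WT, 4.99 and 30.1 CPM in the double KO and 3.24 and 18.4 CPM in the other groups. Of these, Fbn1 reached 21.1 CPM and Twist1 8.71 CPM in the double KO, against at most 2.37 and 1.11 CPM in WT, while Col1a1, Thy1 and Pdgfrb reached at most 0.998, 0.601 and 0.287 CPM in the double KO, against at most 3.37, 5.17 and 2.20 CPM in WT. The part of either marker set in the values of Rftn2, Myof and Emd was not tested.

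Rftn2 encodes raftlin-2, a lipid-raft protein related to raftlin, which is known from B cell receptor signalling in rafts. Myof encodes myoferlin, a ferlin with C2 domains that acts in membrane fusion, membrane repair and receptor recycling. Emd encodes emerin, a LEM-domain protein of the inner nuclear membrane that binds lamins and BAF, and whose loss causes Emery-Dreifuss muscular dystrophy. In mouse pluripotent cells, miR-290 and miR-302 are major microRNA clusters. Many of their 3p strands share a seed, the bases that pair with target messages, and so can repress overlapping sets of targets.

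The seeds are shown because they define what the 2 KO genotypes share. Mature 3p sequences are from RefSeq (GRCm38.p6), 5′ to 3′, with the seed (bases 2 to 8) in capitals. The 3 listed miR-290 cluster members and 2 listed miR-302 cluster members that carry the seed AAGUGCU are:
miR-291a-3p: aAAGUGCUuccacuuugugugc
miR-294-3p: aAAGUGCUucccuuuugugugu
miR-295-3p: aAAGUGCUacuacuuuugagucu
miR-302b-3p: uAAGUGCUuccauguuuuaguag
miR-302d-3p: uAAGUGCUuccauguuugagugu
Not shown are miR-290b-3p, miR-292b-3p and miR-293-3p, which carry other seeds. Further members, with a related seed or in miR-367 a different one, are:
miR-302c-3p: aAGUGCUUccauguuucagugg
miR-290a-3p: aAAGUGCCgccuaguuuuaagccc
miR-291b-3p: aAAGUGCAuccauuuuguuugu
miR-367-3p: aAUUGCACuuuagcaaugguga
The miR-290 cluster lies on chromosome 7, with miR-291a-3p at chr7:3218968-3218989, and the miR-302 cluster on chromosome 3, with miR-302b-3p at chr3:127545275-127545297 (both plus strand). The letters AAGUGCU thus stand in both clusters.

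Rftn2 was high where miR-302 alone was missing, in iPSC and in ESC, and low in every other group. In WT iPSC the 3 libraries had 4.85, 3.95 and 2.96 CPM. In miR-302 KO iPSC, colony 1 had 60.5 and 445.1 CPM and colony 2 had 184.5 and 64.8 CPM. The 2 miR-302 KO ESC libraries had 70.0 and 73.0 CPM. All 6 libraries of the single miR-302 KO lay above all 13 others, of which the highest was 14.3 CPM.

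The miR-290 KO gave low Rftn2. In miR-290 KO iPSC colony 1 had 2.85 and 3.87 CPM and colony 2 had 8.10 and 14.3 CPM. Colony 1 overlapped the WT range and colony 2 lay above it. In miR-290 KO ESC the libraries had 4.93 and 3.80 CPM, and in the double KO iPSC colony 1 had 2.46 and 2.14 CPM and colony 2 had 1.43 and 3.79 CPM. The double KO, which lacks miR-302 as well, overlapped WT and did not share the level of the single miR-302 KO. As group means over samples (a colony counts as the mean of its libraries), Rftn2 was 188.7 ± 90.6 CPM in miR-302 KO iPSC (SD, n = 2 colonies), 48.2 times the 3.92 ± 0.946 CPM of WT (SD, n = 3), and 71.5 ± 2.14 CPM in miR-302 KO ESC (SD, n = 2). It was 7.28 ± 5.54 in miR-290 KO iPSC, 4.37 ± 0.798 in miR-290 KO ESC and 2.46 ± 0.220 in the double KO (SD, n = 2 each). In that order of means the 2 miR-302 KO groups overlapped in their libraries, as did miR-290 KO iPSC, miR-290 KO ESC, WT and double KO, each with the next, and no library lay between 14.3 and 60.5 CPM. In a bulk library, fewer cells with much of an RNA and less of it per cell cannot be told apart.

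Of the 3 genes, Rftn2 varied most between libraries of 1 colony in 5 of the 6 KO colonies. In miR-302 KO iPSC the 2 libraries differed 7.36-fold in colony 1 and 2.85-fold in colony 2. Of the 6686 genes with at least 100 reads in both libraries of colony 1, 1.26% differed more, and of 8472 such genes in colony 2, 3.06% did. The libraries of double KO colony 2 differed 2.64-fold, at 1.43 and 3.79 CPM, from 25 and 63 reads. Reads for Rftn2 numbered 10951 over the miR-302 KO iPSC libraries, 2544 over the miR-302 KO ESC and 208 over WT. They numbered 419 over miR-290 KO iPSC and 157 over the double KO, where Emd had 9191 and 8385. Fold differences of Rftn2 in those 2 groups thus rest on few reads, and the part of counting noise in them was not tested. Without the library that stood apart, the log2 difference between miR-302 KO and WT iPSC was 4.35 (SE 0.46), in place of 5.07 (SE 0.45).

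**Figure D1:**
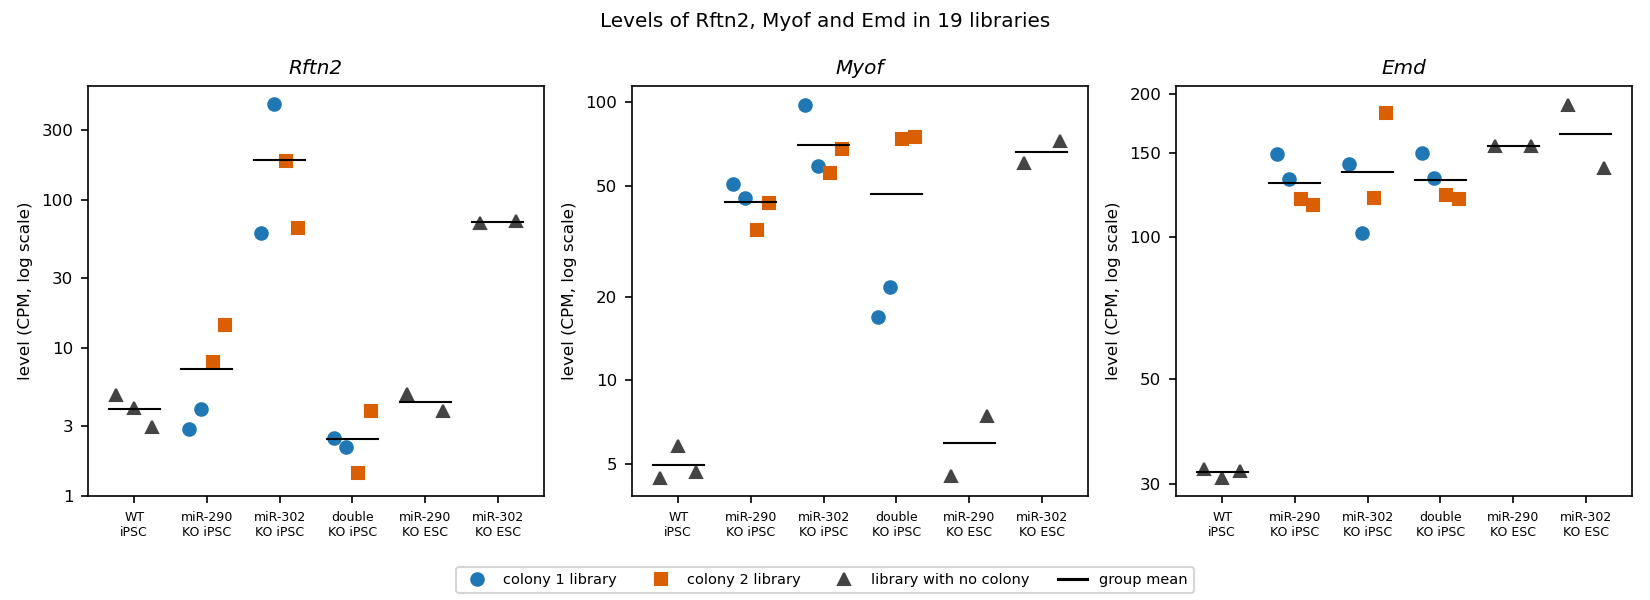
Level of each gene (CPM, log axis) in the 19 libraries by group, with the libraries of colony 1 and colony 2 in KO iPSC marked and group means as bars. Rftn2 was above 60 CPM only in the 6 libraries of the single miR-302 KO, Myof was under 10 CPM only in WT iPSC and miR-290 KO ESC, and Emd was under 35 CPM only in WT iPSC.

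Myof was low in miR-290 KO ESC as in WT iPSC, and higher in all other groups. The WT libraries had 4.47, 5.79 and 4.68 CPM. The miR-290 KO ESC libraries had 4.52 and 7.43 CPM, which overlapped WT. The miR-302 KO ESC had 60.7 and 72.2 CPM. In miR-302 KO iPSC, colony 1 had 97.9 and 58.7 CPM and colony 2 had 55.6 and 67.8 CPM, about the level of the miR-302 KO ESC. These 6 libraries span 55.6 to 97.9 CPM and share their range across iPSC and ESC.

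Within the miR-290 KO, the iPSC and ESC libraries did not overlap for Myof. In the iPSC, colony 1 had 50.9 and 45.4 CPM and colony 2 had 34.8 and 43.5 CPM, all above the 2 miR-290 KO ESC libraries. The 2 double KO colonies differed from each other: colony 1 had 16.9 and 21.7 CPM and colony 2 had 73.4 and 75.0 CPM. Colony 2 thus lay at the level of the single miR-302 KO, and colony 1 below both single KO iPSC groups but above WT. Mean levels were 4.98 ± 0.712 CPM in WT (SD, n = 3), 43.7 ± 6.34 in miR-290 KO iPSC, 70.0 ± 11.8 in miR-302 KO iPSC, 46.7 ± 38.9 in the double KO, 5.98 ± 2.06 in miR-290 KO ESC and 66.4 ± 8.16 CPM in miR-302 KO ESC (SD, n = 2 each), so that the 3 KO iPSC groups stood 8.77, 14.1 and 9.38 times above WT. In order of means, the library ranges of miR-302 KO iPSC, miR-302 KO ESC, double KO and miR-290 KO iPSC each overlapped the next. Those of miR-290 KO ESC and WT did too. The double KO range spans 2 colonies that lie apart, and no double KO library lay inside the miR-302 KO ESC or miR-290 KO iPSC range.

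Emd was low only in WT iPSC. The 3 WT libraries had 32.4, 31.0 and 32.0 CPM. All 16 KO libraries, iPSC and ESC alike, had between 102.0 and 190.2 CPM and so lay above every WT library. In miR-302 KO iPSC, colony 1 had 142.7 and 102.0 CPM and colony 2 had 120.9 and 182.7 CPM. In miR-290 KO iPSC, colony 1 had 149.6 and 132.7 CPM and colony 2 had 120.4 and 116.9 CPM. The double KO had 150.6 and 133.0 CPM in colony 1 and 122.7 and 119.9 CPM in colony 2. In ESC, the miR-290 KO had 155.5 and 155.6 CPM and the miR-302 KO 190.2 and 139.5 CPM.

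Most KO groups overlapped one another for Emd, but both miR-290 KO ESC libraries lay above all libraries of miR-290 KO and double KO iPSC. The KO means ran from 129.9 ± 15.9 CPM in miR-290 KO iPSC to 164.9 ± 35.8 CPM in miR-302 KO ESC (SD, n = 2 each), with 137.1 ± 20.8 in miR-302 KO iPSC, 131.5 ± 14.5 in the double KO and 155.5 ± 0.110 in miR-290 KO ESC. These were 4.09 to 5.19 times the WT mean of 31.8 ± 0.722 CPM (SD, n = 3). In order of these means, each neighbouring pair differed by less than the larger SD of the pair. Since every KO group is compared with the same WT libraries, a property of the WT line and a property of losing a microRNA cluster cannot be told apart for Emd.

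Emd lies on the X chromosome, and the lines differed in X- and Y-linked genes. Xist, the RNA of the inactive X, had 0 reads in WT, between 608.5 and 660.4 CPM in the double KO and at most 9.31 CPM elsewhere. The Y-linked Ddx3y had 7.86 to 8.66 CPM in WT, 39.7 to 52.2 in miR-290 KO iPSC, 0 to 12.95 in miR-302 KO iPSC, at most 0.285 in the double KO, 13.2 to 15.3 in miR-290 KO ESC and at most 0.183 CPM in miR-302 KO ESC. Mean Emd was 31.8 CPM in WT, 129.9 CPM in miR-290 KO iPSC and 131.5 CPM in the double KO. The part of X and Y content in the differences of Emd, Rftn2 and Myof between groups was not tested.

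Differences were estimated with limma on the deposited log2 values, in 1 fit of 13 samples. Against WT, the log2 differences in miR-302 KO iPSC were 5.07 (SE 0.45) for Rftn2, 3.75 (SE 0.43) for Myof and 2.07 (SE 0.19) for Emd. These 3 values chose the genes and carry no test here. In that comparison 0.0235% of genes were called higher and 4 genes, or 0.0313%, in either direction. The 1 gene called lower was the Y-linked Ddx3y (−2.23), which lost its call in 13 of 22 alternatives. In miR-290 KO iPSC the estimates for Rftn2, Myof and Emd were 0.63 (SE 0.45), 3.09 (SE 0.43) and 2.02 (SE 0.19). In the double KO they were −0.69 (SE 0.45), 2.89 (SE 0.43) and 2.04 (SE 0.19). The 3 comparisons share the WT libraries. Rftn2 in miR-290 KO iPSC rested on the colony, at 1.45 without colony 1 and −0.20 without colony 2, and Myof in the double KO was 3.87 without colony 1 and 1.92 without colony 2.

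Between miR-302 KO ESC and miR-290 KO ESC Rftn2 and Myof stood apart and Emd did not. This pattern, like that in the other KO groups, was known and part of the choice of the genes, and the ESC libraries entered the fit that called them, so their differences between KO groups are given as a description with no test. The log2 difference, miR-302 KO minus miR-290 KO ESC, was 4.0 (SE 0.49) for Rftn2 and 3.48 (SE 0.47) for Myof. For Emd it was 0.07 (SE 0.20). Both libraries of the miR-302 KO lay above both of the miR-290 KO for Rftn2 and Myof, and the groups overlapped for Emd. In this comparison 0.211% of all genes were called higher in limma, a share given as background only.

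The double KO was set against miR-290 KO iPSC, from which it differs by the loss of miR-302. It also differed in cell state and line, which cannot be told apart from that loss here. The Rftn2 log2 difference, double KO minus miR-290 KO, was −1.32 (SE 0.49). It rested on the miR-290 KO colony, at −2.15 without colony 1 and −0.49 without colony 2. Myof differed by −0.20 (SE 0.47), with the double KO colonies on either side of the miR-290 KO colonies. Without double KO colony 1 the Myof difference was 0.78, and without colony 2 it was −1.17. Emd differed by 0.02 (SE 0.20), and by −0.085 under median-of-ratios scaling.

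Across cell origin within the miR-290 KO, the Myof log2 difference, iPSC minus ESC, was 2.87 (SE 0.47). All 4 iPSC libraries lay above both ESC libraries. Rftn2 differed by 0.46 (SE 0.49) and Emd by −0.27 (SE 0.20). Of all 12778 genes 0 were called in this comparison in limma, and 492 had an unadjusted p under 0.05. Sample weights gave 4 calls. Within the miR-302 KO the iPSC minus ESC estimates were 0.90 (SE 0.49) for Rftn2, 0.04 (SE 0.47) for Myof and −0.28 (SE 0.20) for Emd.

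**Figure D2:**
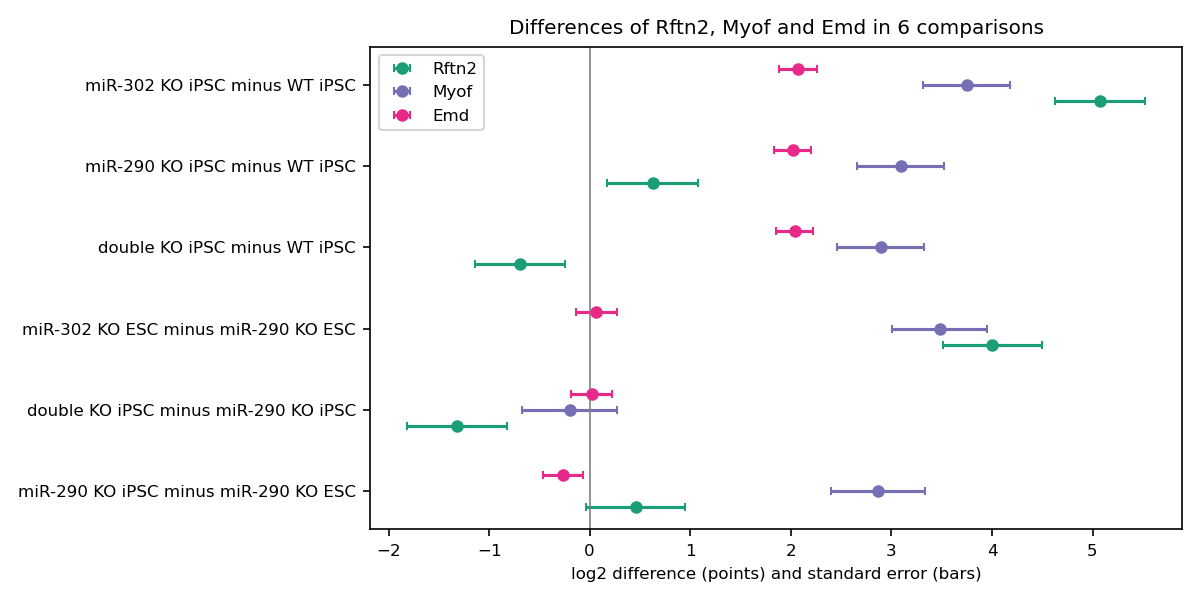
Log2 difference (points) and standard error (bars) of each gene in 6 comparisons from the limma fit. Rftn2 stands far from 0 only in the 2 comparisons that set the single miR-302 KO against WT or miR-290 KO, Myof is near 0 only between double KO and miR-290 KO iPSC, and Emd is near 2 against WT and near 0 elsewhere.

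How the KO effects combined in iPSC also set the genes apart. If the double KO had differed from WT by the sum of the 2 single KO differences, the remainder would be 0. It was −6.39 (SE 0.67) for Rftn2, −3.95 (SE 0.64) for Myof and −2.05 (SE 0.27) for Emd on the log2 scale. For Emd this is the size of 1 single KO difference, since each KO group had about the same level. For Rftn2 it is more than the whole difference of the single miR-302 KO. These remainders use the libraries that chose the genes and carry no test. The double KO also differed in cell state and line, which cannot be told apart from a combined KO effect here. The median log2 difference of all genes against WT was −0.11 in miR-302 KO, 0.14 in miR-290 KO and 0.16 in double KO iPSC, and median-of-ratios scaling moved these medians to −0.07, −0.0021 and −0.09.

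The split of libraries that each member showed was looked up in all genes, in both directions, as a description: each split was drawn from the gene it describes, with the libraries that chose it. Of 12778 genes, 36 (0.282%) were higher in each single miR-302 KO library than in each of the 13 others and 44 (0.344%) were lower. The gap on the deposited log2 scale was at least 1 in 2 of the higher genes (0.0157%), Rftn2 with 2.07 and Fmr1nb with 1.06, and in 1 of the lower (0.00783%), Nrbp2 with 1.1. Nrbp2 was at 0.357 CPM or less in the single miR-302 KO libraries and at 0.928 to 10.7 CPM in the others, so its gap rests on low levels. In 9 genes (0.0704%) each of the 14 libraries outside WT iPSC and miR-290 KO ESC lay above each of those 5, and in 8 (0.0626%) each lay below. Here 1 gene on either side had a gap of at least 1, Myof with 1.17 above and Gm5512, at 2.09 CPM or less in every library, with 1.52 below.

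In 64 genes (0.501%) each of the 16 KO libraries lay above each WT library, and in 28 (0.219%) each lay below. The gap was at least 1 in 2 of those above (0.0157%), Emd with 1.65 and Lama4 with 1.57, and in 0 of those below. Lama4, a laminin chain, ranged from 0.916 to 124.8 CPM over the KO libraries, while Emd stayed within 102.0 to 190.2. Fmr1nb, Nrbp2, Gm5512 and Lama4 were singled out after their values were seen. The 3 genes followed each other only in part: over 13 samples Pearson's r of the log2 values was 0.61 for Rftn2 and Myof, 0.37 for Rftn2 and Emd and 0.63 for Myof and Emd, and these samples share libraries and WT levels.

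The authors' deposited tables, made from the same libraries, list the genes as follows. The authors' deposited table of miR-302 KO against WT iPSC holds 43 genes, 32 higher and 11 lower, and by adjusted p Myof, Emd and Rftn2 are its first 3. It gives log2 fold changes of 5.76 (SE 0.69) for Rftn2, 3.84 (SE 0.32) for Myof and 2.14 (SE 0.25) for Emd. The authors' deposited table of miR-290 KO against WT holds 1429 genes, among them Myof with 2.97 (SE 0.25), first by adjusted p, and Emd with 1.89 (SE 0.19), but not Rftn2. The authors' deposited table of double KO against WT holds 8672 genes, with Myof at 2.92 (SE 0.48) and Emd at 1.75 (SE 0.16) and again without Rftn2.

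The 3 genes lie on different chromosomes (GRCm38, GENCODE M21). Rftn2 (ENSMUSG00000025978.14) spans chr1:55170159-55226782 on the minus strand, Myof (ENSMUSG00000048612.16) spans chr19:37899036-38043577 on the minus strand, and Emd (ENSMUSG00000001964.14) spans chrX:74254687-74261548 on the plus strand. An antisense gene, Gm10561, overlaps the 5′ end of Rftn2 by 532 bp. A transcribed processed pseudogene, Gm14686, lies within the last part of Emd on the same strand and covers 343 bp. Neither is in the matrix, and how reads were shared between Emd and Gm14686 is not given in the sources used here, so the level of Emd is uncertain to that extent.

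The genes next to them were compared to see whether a stretch of chromosome moved. Of 17 nearest measured neighbours (up to 3 on each side of each gene), 0 were called in miR-302 KO against WT iPSC in limma, where 0.0313% of all genes were, and their log2 differences ran from −0.42 to 0.56. Flna, the filamin A gene 4.9 kb from Emd, differed by 0.16 (SE 0.17) and Rpl10, a ribosomal protein gene 9.3 kb on the other side, by 0.04 (SE 0.18). Mob4, 15.3 kb from Rftn2, differed by −0.37 (SE 0.24), Mars2, a mitochondrial methionyl-tRNA synthetase gene 10.4 kb away, by −0.03 (SE 0.39), and Cep55, 11.4 kb from Myof, by 0.32 (SE 0.45). In miR-290 KO against WT, where 1.57% of all genes were called, 0 of the 17 were, and in the ESC comparison, where 0.587% were called, 0 of the 17 were.

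In the double KO against WT, where 49.0% of all genes were called, 10 of the 17 neighbours were. Around Emd, Dnase1l1 rose by 1.85, Flna by 1.52 and Irak1 by 1.2 on the log2 scale. Around Rftn2, the chaperonin genes Hspd1 and Hspe1 fell by 1.11 and 1.44, Mars2 fell by 1.38 and Mob4 rose by 0.76. Around Myof, Slc35g1 rose by 2.15 while the homeobox gene Hhex fell by 1.27 and Fra10ac1 by 0.68. Of 22 alternatives, Dnase1l1 lost its call in 11, Mob4 and Fra10ac1 in 4 each and Mars2 in 2. Without double KO colony 1 the adjusted p in limma was 0.148 for Dnase1l1, 0.104 for Mob4, 0.140 for Fra10ac1 and 0.142 for Mars2 (log2 difference −0.92), and without any 1 of the WT libraries it was 0.0560 to 0.110 for Dnase1l1. Directions were mixed around Rftn2 and Myof.

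**Figure D3:**
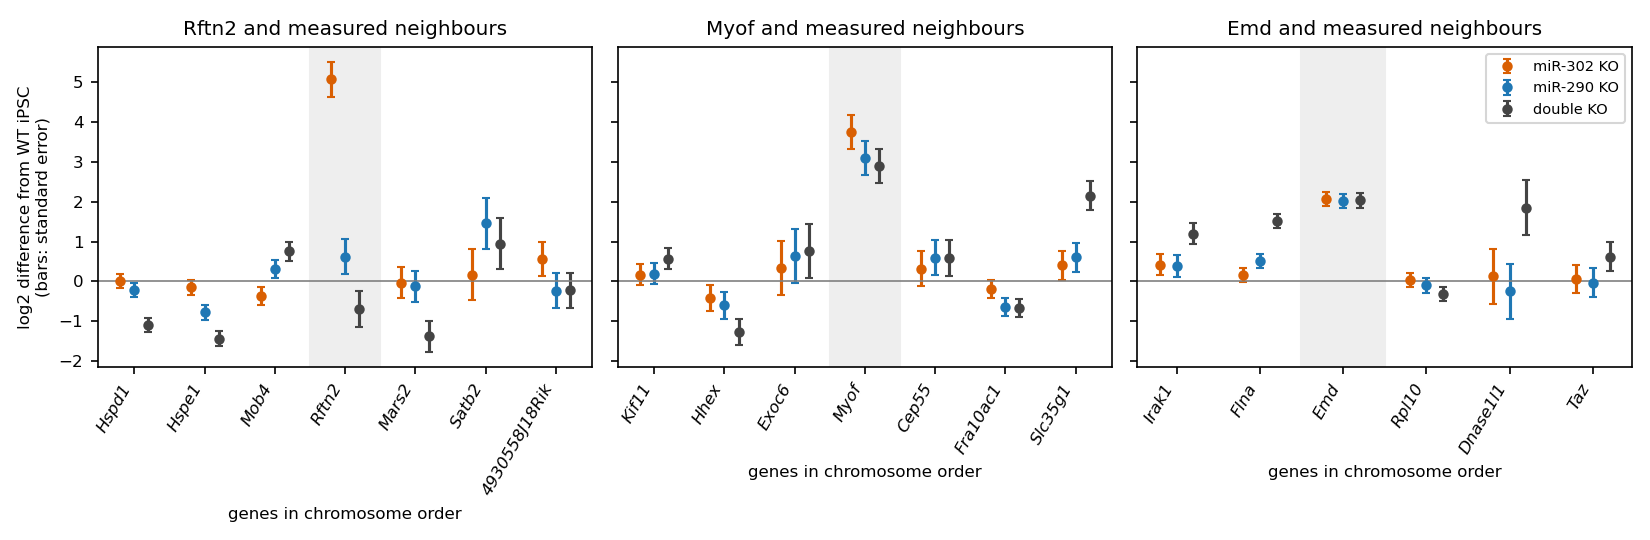
Log2 difference from WT iPSC (points) and standard error (bars) for each gene (shaded) and up to 3 nearest measured neighbours on either side, in chromosome order, in 3 KO iPSC groups. In the miR-302 KO the neighbours lie between −0.42 and 0.56, while the shaded genes stand at 5.07, 3.75 and 2.07.

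Sites for the shared seed were looked for in the messages, as letters on the sense strand. The 7-base match to the seed is AGCACTT, and the 6-base match is GCACTT, which it contains. In the principal GENCODE transcripts, the 3′ UTRs of Rftn2 (1651 nt), Myof (501 nt) and Emd (550 nt) held 0 of either. Among 3′ UTRs of like length (0.8 to 1.2 times), GCACTT stood in 38% for Rftn2, 13.6% for Myof and 13.4% for Emd, and AGCACTT in 18.6%, 4.8% and 4.4%. Over 11839 genes the shares were 31.3% and 16.2%. The match to miR-367, TGCAAT, was also at 0 in all 3 (24% over all genes). As a check on the search, the 3′ UTRs of Cdkn1a, Lats2, Rbl2, Tgfbr2 and Casp2, reported targets of these microRNAs, held between 2 and 4 GCACTT each.

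Outside the 3′ UTR, the principal Rftn2 transcript has 1 match, in the 5′ UTR at base 105 of the transcript (exon 1, chr1:55226673-55226678, minus strand, GRCm38), shown with 10 bases on each side and the match in capitals:
Rftn2 5′ UTR: caccagagttGCACTTttgtctttaa
Protein-coding transcripts of Myof and Emd hold 0 matches over their whole length. The matches are letters in these windows and say nothing of binding.

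Genes whose log2 values ran most like each member were listed by Pearson's r over the 13 samples, which share libraries and depth; r is a description and carries no p. For Rftn2 they were 4933404O12Rik (0.95), Terf1 (0.92), a shelterin protein gene of telomeres, Pex3 (0.91), a peroxisome biogenesis gene, and Snora3 (0.89). The scale of change differed widely: Terf1 had 79.9 CPM in miR-302 KO iPSC and 92.3 in miR-302 KO ESC against 48.8 in WT, 52.7 in miR-290 KO iPSC, 43.4 in the double KO and 43.4 in miR-290 KO ESC. 4933404O12Rik had 20.7 and 17.7 CPM in the 2 miR-302 KO groups and 3.30 to 4.41 in the others. Snora3 was low, with group means from 0.199 CPM in WT to 6.0 CPM in miR-302 KO iPSC. Rftn2 had 3 genes with r over 0.9, while Myof and Emd had 0.

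For Myof the nearest were Vps37a (0.89), an ESCRT-I subunit gene, Mapkapk3 (0.86), a p38-activated kinase gene, Lpcat1 (0.85), a lysophosphatidylcholine acyltransferase gene, and Fam193a (0.84). Vps37a had 37.4 CPM in WT, 47.0 CPM in miR-290 KO ESC and 55.2 to 69.3 CPM elsewhere, so its range was far narrower than that of Myof. Lpcat1 was low throughout, with group means from 0.0857 CPM in miR-290 KO ESC to 2.86 CPM in miR-302 KO ESC. For Emd they were Ift57 (0.88), an intraflagellar transport gene, A930004D18Rik (0.86), Gfer (0.82), a sulfhydryl oxidase gene of mitochondria, and Rufy1 (0.81). Ift57 had 4.59 CPM in WT and 10.6 to 16.5 in the KO groups, and Gfer had 60.1 in WT and 100.2 to 117.4 in the KO groups.

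**Figure D4:**
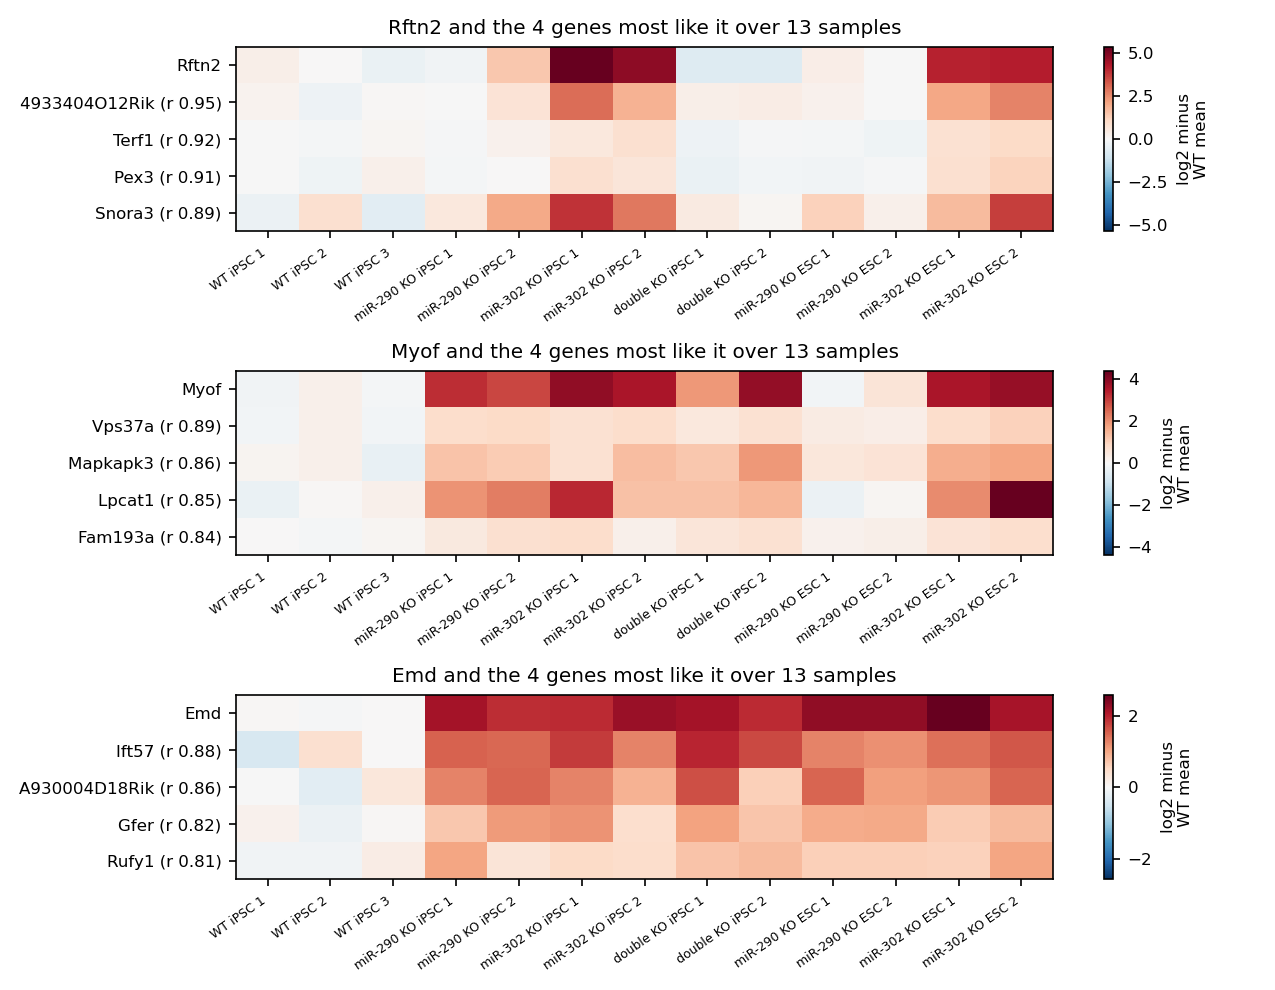
Deposited log2 value minus the mean of the WT iPSC libraries for each gene and the 4 genes with the highest r, in 13 samples; each panel has its own colour scale. Rftn2 and its 4 genes are high in the 4 miR-302 KO samples. Snora3 was also 2.05 in miR-290 KO iPSC colony 2, above its 1.69 in miR-302 KO ESC library 1. The Myof and Emd rows reach further from 0 than most genes below them.

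Related genes were compared in the same way. Of 9 measured raft scaffold genes (flotillins, stomatins, adaptors such as Pag1 and Lat, and Rftn1), 20 genes of ferlins and membrane repair (Dysf, annexins, EHD proteins, calpains, S100 proteins) and 23 genes of the nuclear envelope (lamins, LEM-domain and LINC complex genes), 0 were called in miR-302 KO against WT iPSC in limma; 1, 1 and 2 of them had an unadjusted p under 0.05. With 0.0313% of all genes called, a count of 0 in lists of this size says nothing particular of them. Medians were −0.13, −0.15 and −0.26 on the log2 scale, against −0.11 for all genes. Rftn1, the closest relative of Rftn2, had a log2 difference of 1.22 (SE 0.63), the highest of its list. Dysf, a relative of Myof, had −1.60 (SE 0.99), the lowest of its list. Rftn1 had larger estimates against WT in miR-290 KO (2.18, SE 0.63) and double KO iPSC (2.35, SE 0.63), 2 groups in which Rftn2 was low. Without miR-302 KO colony 2, 1273 genes were called in all, and 2 ferlin and membrane genes and 4 nuclear envelope genes were among them. Caveolin genes Cav1 and Cav2 and the ferlin genes Otof, Fer1l4, Fer1l5 and Fer1l6 are not in the matrix.

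In miR-290 KO against WT iPSC, where 1.57% of all genes were called, 3 of the 20 ferlin and membrane genes rose and 0 fell: Ehd2, a caveola-associated ATPase gene, by 3.93 (SE 0.71, adjusted p 0.0220 in limma), Capn2, a calpain protease subunit gene, by 3.38 (SE 0.75, adjusted p 0.0455) and Anxa2, the annexin A2 gene, by 2.77 (SE 0.35, adjusted p 0.00499). The list's median was 0.50, against 0.14 for all genes. Without miR-290 KO colony 2 none of the 3 was called, with adjusted p of 0.308, 0.393 and 0.0841 in limma. Ehd2 was also not called without any 1 of the WT libraries (0.0528 to 0.0779 in limma), and Capn2 was not called in 10 of 22 alternatives. Of the raft and nuclear envelope genes 0 were called in limma, with 4 of 9 and 4 of 23 at an unadjusted p under 0.05. The raft count rose to 1 or 2 in 7 of 22 alternatives and the nuclear envelope count to 1 in 4, among them the fit without miR-290 KO colony 1.

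In the double KO against WT, 49.0% of all genes were called (27.4% higher and 21.5% lower), and the shares of called genes in the lists are to be read against that. Of the 9 raft genes 5 rose and 1 fell, led by Stom (4.16), Lat (−3.54) and Pag1 (3.53). Of the 20 ferlin and membrane genes 11 rose and 0 fell, led by Capn2 (7.11), Ehd2 (5.99) and Anxa2 (5.51). Of the 23 nuclear envelope genes 10 rose and 2 fell, led by Lmna (4.92), the lamin A/C gene, Tmem43 (3.37) and Syne2 (2.86). The medians were 2.35, 1.03 and 0.56, against 0.16 for all genes. In this group Myof stood within the range of its list and Rftn2, at −0.69, below the median of its list.

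Against miR-290 KO iPSC, where 32.4% of all genes were called, the double KO had 4 raft genes higher and 1 lower, 6 ferlin and membrane genes higher and 3 lower, and 7 nuclear envelope genes higher and 0 lower. The largest were Pag1 (3.46), Lat (−3.30) and Stom (3.02) in the first list, Capn2 (3.74), Dysf (−3.71) and S100a10 (3.37) in the second and Lmna (3.40), Tmem43 (2.98) and Tmpo (2.14), the lamina-associated polypeptide 2 gene, in the third. Medians were 0.84, 0.51 and 0.67, against 0.03 for all genes. Stom was not called without miR-290 KO colony 1 (1.97, adjusted p 0.120 in limma) or double KO colony 1 (2.80, 0.0764). Dysf was not called without double KO colony 1 (−2.42, adjusted p 0.179 in limma) or either miR-290 KO colony (0.0855 and 0.0772). Without double KO colony 1, 2 raft genes were called in place of 5, and without miR-290 KO colony 1, 3 were. Myof and Emd had log2 differences of −0.20 and 0.02 in this comparison.

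In miR-302 KO against miR-290 KO ESC, where 0.587% of all genes were called, 1 raft gene fell, Prom1 (−2.70, SE 0.41, adjusted p 0.0161 in limma), which encodes the membrane protein prominin 1, and 1 ferlin and membrane gene fell, Anxa2 (−1.99, SE 0.38, adjusted p 0.0410). No nuclear envelope gene was called, and 4 of 23 had an unadjusted p under 0.05. The medians of the 3 lists were −0.67, −0.38 and 0.0040, against −0.07 for all genes. Anxa2 lost its call in 13 of 22 alternatives, including each ESC library left out in turn, and Prom1 lost it in 5, including those without either miR-290 KO ESC library or without library 2 of the miR-302 KO ESC. Rftn2 and Myof, at 4.0 and 3.48, went the other way from these members of their lists.

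**Figure D5:**
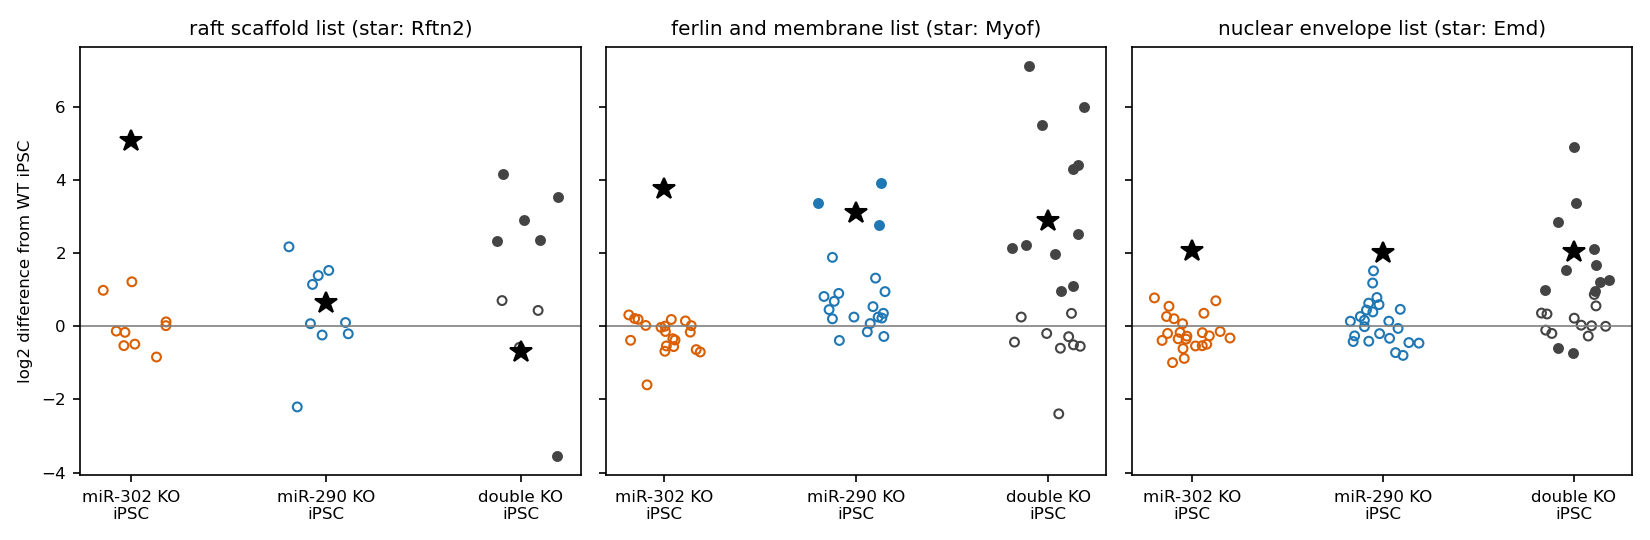
Log2 difference from WT iPSC of the genes in the raft, ferlin and membrane, and nuclear envelope lists in 3 KO iPSC groups; filled circles were called in limma, open circles were not, and the star is Rftn2, Myof or Emd. In the miR-302 KO all circles are open and lie between −1.60 and 1.22, below the stars at 5.07, 3.75 and 2.07.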

How the data were processed

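QuantSeq libraries (200 ng of total RNA, single-end 50 bp reads, per the labels' protocols) were analysed from a deposited matrix of log2 values for 12778 genes and 19 libraries; 6 further columns were not used. The submitters' processing notes name the build mm10 and Trim Galore 0.66, STAR, Salmon 1.4.0, FastQC 0.11.9, MultiQC, limma and DESeq2 1.34.0, with roles not stated. As read from the values, the deposited log2 numbers are CPM plus a small prior, with a constant shift per gene. Whole reads were recovered for 12235 genes (99.7% of their values whole within 0.02 reads), but not for 543, and for 100% of shared genes they came within 5% of the mean normalized count (signal) in the authors' deposited tables. Those tables hold, per the file headers, log2 fold changes, a test score and p-values from the authors, and list only adjusted p-values up to 0.05.

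The libraries of a colony were averaged, and 13 samples in 6 groups were fitted with limma 3.58.1 (R 4.3.3), with 7 residual degrees of freedom, a spread trend on mean level and Benjamini-Hochberg adjustment over 12778 genes (called at adjusted p under 0.05). The code was tested on simulated data. The members and lists were chosen with earlier results of these data known. No p is given for the members, since their pattern over all groups was part of that choice. Genes named are the members, the 3 largest called changes per list, the 3 nearest measured neighbours on each side and the 4 genes with the highest r; 1 neighbour is not reported here. Alternatives were libraries as samples, median-of-ratios scaling, no trend, sample weights, 2 groups only, a filter (1 CPM in 2 samples), log2(CPM + 1), a replicate block and each sample left out; leaving out library 2 of miR-302 KO colony 1 was added after seeing the data. PCR reads carry no molecular identifiers.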

Additional observations from a re-analysis of the deposited data

How the results depend on the processing

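With each library a sample, 20 genes were called in miR-302 KO against WT iPSC, 409 in miR-290 KO against WT, 9 between the ESC groups and 1 in miR-290 KO iPSC against ESC, and Rftn2 kept 4.0 between the ESC groups. Without a trend, 7 genes were called in miR-302 KO against WT. Sample weights gave 386 in miR-290 KO against WT and 4 in miR-290 KO iPSC against ESC, with Myof at 2.87. The log2(CPM + 1) scale gave 371 in miR-290 KO against WT. With only the 2 ESC groups, 0 genes were called (Rftn2 4.0, Myof 3.48). Median-of-ratios scaling gave Emd 1.79 in double KO against WT, and −1.42 for Rftn2 and −0.085 for Emd in double KO against miR-290 KO. Without library 2 of miR-302 KO colony 1, Rftn2 was 4.35 against WT, and 339 genes (miR-290 KO against WT) and 129 (ESC groups) were called.

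With the replicate block, 2 genes were called in miR-302 KO against WT, 55 in miR-290 KO against WT and 28 between the ESC groups. Same-numbered samples did not pair: r of their deviations was −0.27 to 0.18 over 30 pairs, with 4 over 0.1.

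With 1 sample left out, where a group left with 1 sample is assumed to vary like the others, the called genes ran from 3 to 1273 (miR-302 KO against WT; 1273 without miR-302 KO colony 2), 2 to 300 (miR-290 KO against WT; 2 without miR-290 KO colony 2), 4 to 357 (ESC groups; 357 without miR-302 KO ESC library 1), 2682 to 4541 (double KO against miR-290 KO) and 0 to 7 (miR-290 KO iPSC against ESC). Rftn2 ran from −0.20 to 1.45 (miR-290 KO against WT), 3.82 to 4.18 (ESC groups), −2.15 to −0.49 (double KO against miR-290 KO) and −0.37 to 1.29 (miR-290 KO iPSC against ESC). Myof ran from 1.92 to 3.87 (double KO against WT), 3.13 to 3.83 (ESC groups), −1.17 to 0.78 (double KO against miR-290 KO) and 2.52 to 3.22 (miR-290 KO iPSC against ESC). Emd ran from −0.16 to 0.29 (ESC groups) and −0.10 to 0.14 (double KO against miR-290 KO). The cause was not tested. Of 96 called values of other genes, 54 kept their call in every alternative and 0 reversed.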
